A study of Homo sapiens with 8 samples.

Results

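Sorted processing bodies (P-bodies) were compared with cytosol in HEK293T cells, an established human line of embryonic kidney origin, by 2 kinds of RNA editing read in the same libraries. The members are the genes listed in both deposited editing tables of the sort, 11699 of the 12047 genes listed in either. The tables listed 11969 genes for A-to-I and 11777 for C-to-U, with 270 genes in the first alone and 78 in the second alone. The broken lines of ANK2, 3 in each table, were left out. The question was which of these genes gained both marks in the sorted material, which gained A-to-I or C-to-U alone, and which gained neither.

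The labels give 2 libraries per group, Sorted-Pbodies 1 and 2 and Cytosol 1 and 2, all from HEK293T cells named for PB-TRIBE-STAMP, the system that carries both editors. Sorted libraries were made from 50 ng of RNA labelled as total RNA, and cytosol libraries from 100 ng labelled as cytoplasmic RNA. The labels' batch 1 holds library 1 of each group and batch 2 holds library 2. No library of these groups lacked the editors, so editing present without them is part of every score. Fraction and RNA input change together and cannot be told apart. The labels do not name the protein that carries each editor, a promoter or a clone, and they do not say whether libraries 1 and 2 stem from separate cultures. The spread behind each p-value is therefore that of these libraries, which may be technical.

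P-bodies are cytoplasmic condensates without a membrane that gather decapping and decay enzymes, translational repressors such as DDX6, and mRNA that is not being translated. In the TRIBE approach a protein of interest is fused to the deaminase domain of ADAR, which turns adenosine into inosine, read as guanosine. In the STAMP approach the fused enzyme is an APOBEC deaminase, which turns cytidine into uridine. RNA that met the fusion protein carries the edited bases with it, so the marks can be read after the cell has been fractionated.

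Dividing the edited reads of a gene by its reads gives its score, shown here as a percentage. Libraries held 12224360 to 15947999 reads in the A-to-I table and between 12048147 and 15712695 for C-to-U. Of all reads in the A-to-I table, 9.544% and 10.46% were edited in sorted libraries 1 and 2, against 3.667% and 3.428% in cytosol libraries 1 and 2. For C-to-U these shares were 5.254%, 6.371%, 0.7644% and 0.667% in the same order. Both editors therefore marked a larger share of reads in both sorted libraries than in either cytosol library. Reads per gene differed more between the sorted libraries (chi-square of 19 per degree of freedom) than between the cytosol libraries (1.92). The 8 marker genes of HEK293T cells summed to 985 to 1090 CPM (read counts scaled to library size) per library, carried by CKB (464 to 791) and LIN28B (102 to 455), while SOX11 was nearly absent (0 to 0.126). The 8 blood genes summed to 0.958 to 2.06 CPM, the 6 fibroblast genes to 11.6 to 27.3 and the 6 genes of epithelial tumour lines to 10.5 to 26.5. Of these, 2 blood, 1 fibroblast and 2 epithelial genes had no count in any library.

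Most genes gained both marks. Editing was tested with edgeR's quasi-likelihood test on edited and unedited reads, for each gene edited in at least 2 of the 4 libraries, and called at a Benjamini-Hochberg adjusted p under 0.05. Over each whole table, A-to-I rose in the sorted libraries for 8311 of 11303 genes (73.5%) and fell for 122 (1.08%). C-to-U rose for 7221 of 10613 genes (68%) and fell for 31 (0.292%). Of the 11699 members, 10506 (89.8%) could be tested for both marks, 697 for A-to-I only, 99 for C-to-U only and 397 for neither. Without sorted library 2, cytosol library 1 or cytosol library 2, the members whose A-to-I fell numbered 48, 44 and 40 in place of 119. Those whose C-to-U fell numbered 12 to 21 without any 1 library, in place of 31. A member could pass the filter on edited reads through the libraries of 1 fraction alone, sorted or cytosol. A gene listed at 0 in the other fraction then had to differ, so its values are given as a description. Of the 10506 genes, 524 had no C-to-U edited read in both cytosol libraries and 101 no A-to-I edited read. In both sorted libraries these numbers were 233 and 118. Such genes are included in the counts below.

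Among the 10506 genes tested for both, 6728 (64%) rose for both marks, 1343 (12.8%) for A-to-I only, 480 (4.57%) for C-to-U only and 1955 (18.6%) for neither. The last group held 1844 genes called for neither mark, 83 called lower for A-to-I, 22 called lower for C-to-U and 6 called lower for both. The comparisons of the 2 marks share all 4 libraries, so their overlap is given as counts with no test. The genes that rose for both had median A-to-I scores of 9.76% and 10.3% in sorted libraries 1 and 2 and 3.34% and 3.12% in cytosol libraries 1 and 2. Their median C-to-U scores were 5.21%, 5.91%, 0.793% and 0.71% in the same order. The genes that rose for neither had median A-to-I scores of 3.3%, 2.5%, 2.54% and 2.48% and median C-to-U scores of 0.8%, 0.617%, 0.592% and 0.595%. Their median ratios of sorted to cytosol score were 1.29 for A-to-I and 1.72 for C-to-U, so this class too lay above 1 for both marks. These are bulk libraries, so more edited RNA per cell and more cells with edited RNA cannot be told apart.

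A count that needs no model gave a like picture. Both sorted scores lay above both cytosol scores in 79% of the 11699 members for A-to-I and 72.5% for C-to-U, and below both in 4.38% and 3.61%. They lay above both cytosol scores for both editors in 7949 members (67.9%), for A-to-I only in 1298 (11.1%), for C-to-U only in 535 (4.57%) and for neither in 1917 (16.4%). Of the 6728 genes that rose for both marks by the test, 6712 (99.8%) were among those whose groups did not overlap for either editor.

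The C-to-U gain was the larger of the 2 for many genes. Over the 10506 genes the median ratio of sorted to cytosol score, with reads pooled over the 2 libraries of each fraction, was 2.62 for A-to-I and 4.73 for C-to-U, and a score of 0 was set to the level of 3 edited reads over the group. These medians are 1.39 and 2.24 on the log2 scale. A single edgeR fit of both editors tested the difference of the 2 log2 odds ratios (C-to-U minus A-to-I) per gene. Both editors were read in the same 4 libraries, with nearly equal reads per gene (median ratio 0.9924 to 0.9974). Their columns entered the fit as if from separate libraries. The p-values of the difference, here and below, therefore do not account for this pairing and may be too small. The fit called a larger C-to-U gain for 2277 genes (21.7%) and a larger A-to-I gain for 58 (0.552%). The first count became 1134, 877, 1358 and 1157 without sorted library 1 or 2 or cytosol library 1 or 2, and the second 14, 24, 28 and 22. Since the median gene gained both marks, the gains were also measured beyond the median gene of each library. On that scale 853 of the 10506 genes (8.12%) rose for both marks, all of them among the 6728. Below, rose and fell refer to the scores themselves, and genes that gained less than the median gene lie below 0 on the second scale.

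**Figure D1:**
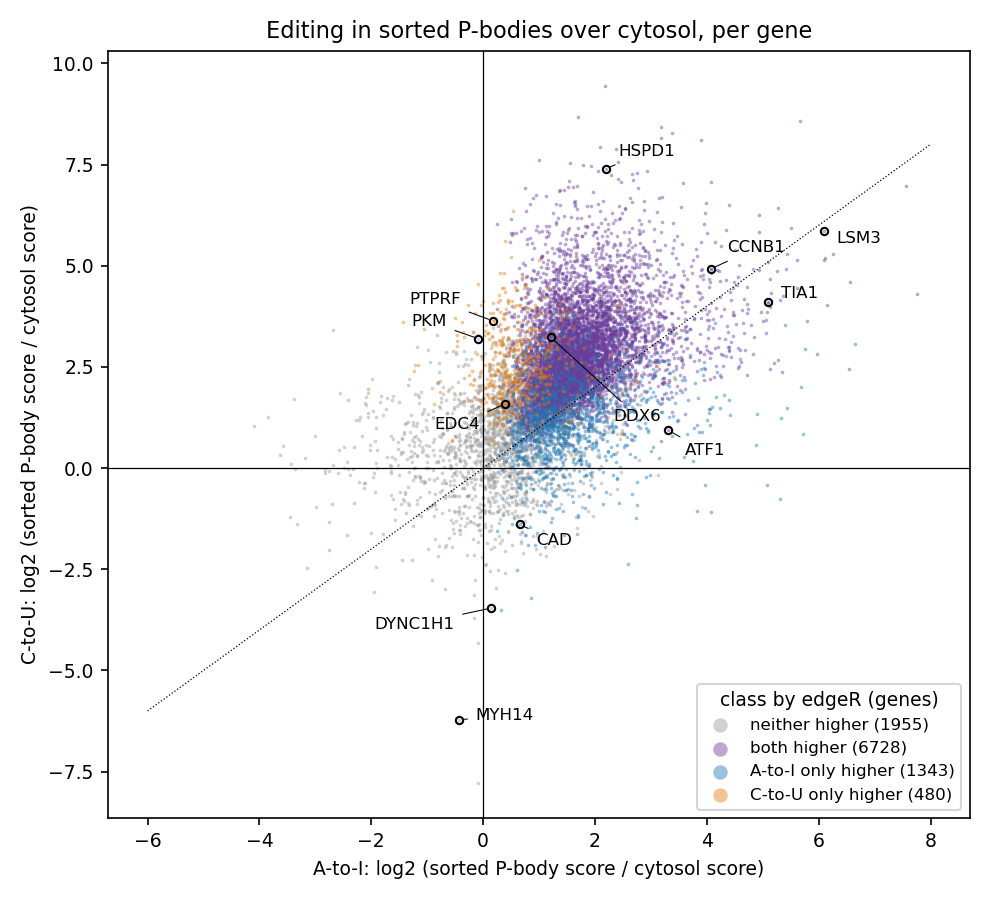
Each point is 1 gene tested for both marks, placed by the log2 ratio of its sorted to its cytosol score (reads pooled over 2 libraries each) for A-to-I (horizontal) and C-to-U (vertical), with scores of 0 set to the level of 3 edited reads over the group, colours for the 4 classes and a dotted line of equal gain. Of the 10506 genes, 6728 rose for both marks, with medians over all genes of 1.39 and 2.24.

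The mRNAs of the P-body machinery carried both marks in the cytosol and more of both in the sorted libraries. Of 8 decapping and 5′ decay genes, 7 (DCP1A, DCP1B, DCP2, EDC3, LSM1, PATL1 and XRN1) rose for both marks and EDC4 for neither, against 64% of all genes tested. The median log2 ratios of these 8 were 1.49 (A-to-I) and 2.49 (C-to-U), beside 1.39 and 2.24 over all genes, and none of the 8 rose for both marks beyond the median gene. The count of 7 became 5 without sorted library 2, and among the most deeply read of 4 equal bins of genes 87.3% rose for both.

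DCP2, the catalytic decapping enzyme, had A-to-I scores of 18.5% and 19.1% in sorted libraries 1 and 2 and 6.75% and 5.89% in cytosol libraries 1 and 2. Its C-to-U scores were 13.2%, 13.7%, 2.93% and 3.05% in the same order. The groups did not overlap for either mark. The log2 odds ratios were 1.78 ± 0.14 (SE; adjusted p = 1.4e-08, edgeR) and 2.33 ± 0.25 (adjusted p = 7.5e-06, edgeR).

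DCP1A, the activator that binds DCP2, had A-to-I scores of 19.3% and 19.7% against 6.54% and 5.82%, and C-to-U scores of 8.47% and 8.21% against 1.75% and 1.05%. XRN1, the exonuclease that degrades decapped mRNA from its 5′ end, had 14.1% and 15.2% against 7.19% and 6.14% for A-to-I, and 11.5% and 11.6% against 4.13% and 3.43% for C-to-U. XRN1 thus had the highest cytosolic C-to-U scores among these 8 genes.

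PATL1, a scaffold between the decapping and deadenylation machineries, gained the C-to-U mark more. Its A-to-I scores were 12.7% and 15.5% in the sorted libraries and 5.39% and 5.2% in the cytosol. The C-to-U scores stood at 4.59% and 4.16% against 0.254% and 0.2%. The C-to-U gain exceeded the A-to-I gain by 2.76 ± 0.48 on the log2 scale (adjusted p = 4.4e-05, edgeR), the one such call among the 8.

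EDC4, the enhancer of decapping that scaffolds DCP1A and DCP2, had A-to-I scores of 4.48%, 3.33%, 3.31% and 2.83% in sorted libraries 1 and 2 and cytosol libraries 1 and 2. For C-to-U the scores were 0.315%, 0.334%, 0.148% and 0.0706%. Neither mark overlapped between the fractions, but the sorted library 2 and cytosol library 1 scores nearly met for A-to-I. The log2 odds ratio was 0.39 (95% interval -0.15 to 0.93; adjusted p = 0.18, edgeR) for A-to-I and 1.5 (-0.50 to 3.51; adjusted p = 0.16) for C-to-U. The latter rests on 7 edited reads of 2168 in the sorted libraries and 3 of 2770 in the cytosol. DCP1B and EDC3, which are decapping co-factors, lost their C-to-U calls without sorted library 2 (adjusted p = 0.085 and 0.15).

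All 11 of the 12 translational repressor genes that could be tested rose for both marks, beside 64% of all genes. The median mRNA GC content of the 11 was 40.4%, and 93.1% of all tested genes with 31.8% to 40.9% GC rose for both. With an odds ratio of at least 2 also asked, the count was 9 of 11. Among the 11 were DDX6, LSM14A, LSM14B, EIF4ENIF1, EIF4E2, GIGYF2, CPEB4, PUM2, RC3H1 and RC3H2. ZC3H12A had too few edited reads for both tests. The median log2 ratios of the 11 were 1.43 and 2.40, beside 1.39 and 2.24 over all genes. Again none rose for both marks beyond the median gene, beside 8.12% of all genes. For 6 of the 11 the C-to-U gain was called larger than the A-to-I gain, and for none smaller, beside 21.7% and 0.552% of all genes.

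DDX6 encodes the RNA helicase that P-bodies need for their assembly (ENSG00000110367.13; hg38, chromosome 11, 118747763 to 118791164, minus strand). Its mRNA had A-to-I scores of 12.1% and 13.5% in the sorted libraries and 5.49% and 5.56% in the cytosol, over 38851 and 40274 reads. Its C-to-U scores were 4.83% and 6.38% against 0.721% and 0.456%. Both sorted libraries were high for both marks. The log2 odds ratios were 1.33 ± 0.10 (adjusted p = 1e-08, edgeR) and 3.33 ± 0.35 (adjusted p = 6.9e-06, edgeR), and their difference was 1.99 ± 0.29 (adjusted p = 3.7e-06, edgeR).

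LSM14A, a partner of DDX6, had A-to-I scores of 9.87% and 10% against 4.03% and 3.34%, and C-to-U scores of 3.52% and 4.05% against 0.12% and 0.342%. Its C-to-U gain was the larger by 2.57 ± 0.35 on the log2 scale (adjusted p = 1e-06, edgeR). CPEB4, which binds cytoplasmic polyadenylation elements, stood at the other end. Its A-to-I scores were already 10.7% and 10.2% in the cytosol and reached 14.5% and 15.3% in the sorted libraries, while C-to-U went from 6.21% and 6.76% to 17.3% and 16.0%. Its A-to-I gain was 0.82 below the median gene's on the log2 scale (-0.82; adjusted p = 0.00022, edgeR). EIF4ENIF1 encodes 4E-T, the shuttle that binds the cap-binding protein EIF4E. It rose from 4.86% ± 0.62 to 15.2% ± 0.767 for A-to-I and from 0.619% ± 0.0352 to 3.28% ± 1.31 for C-to-U (SD, n = 2).

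**Figure D2:**
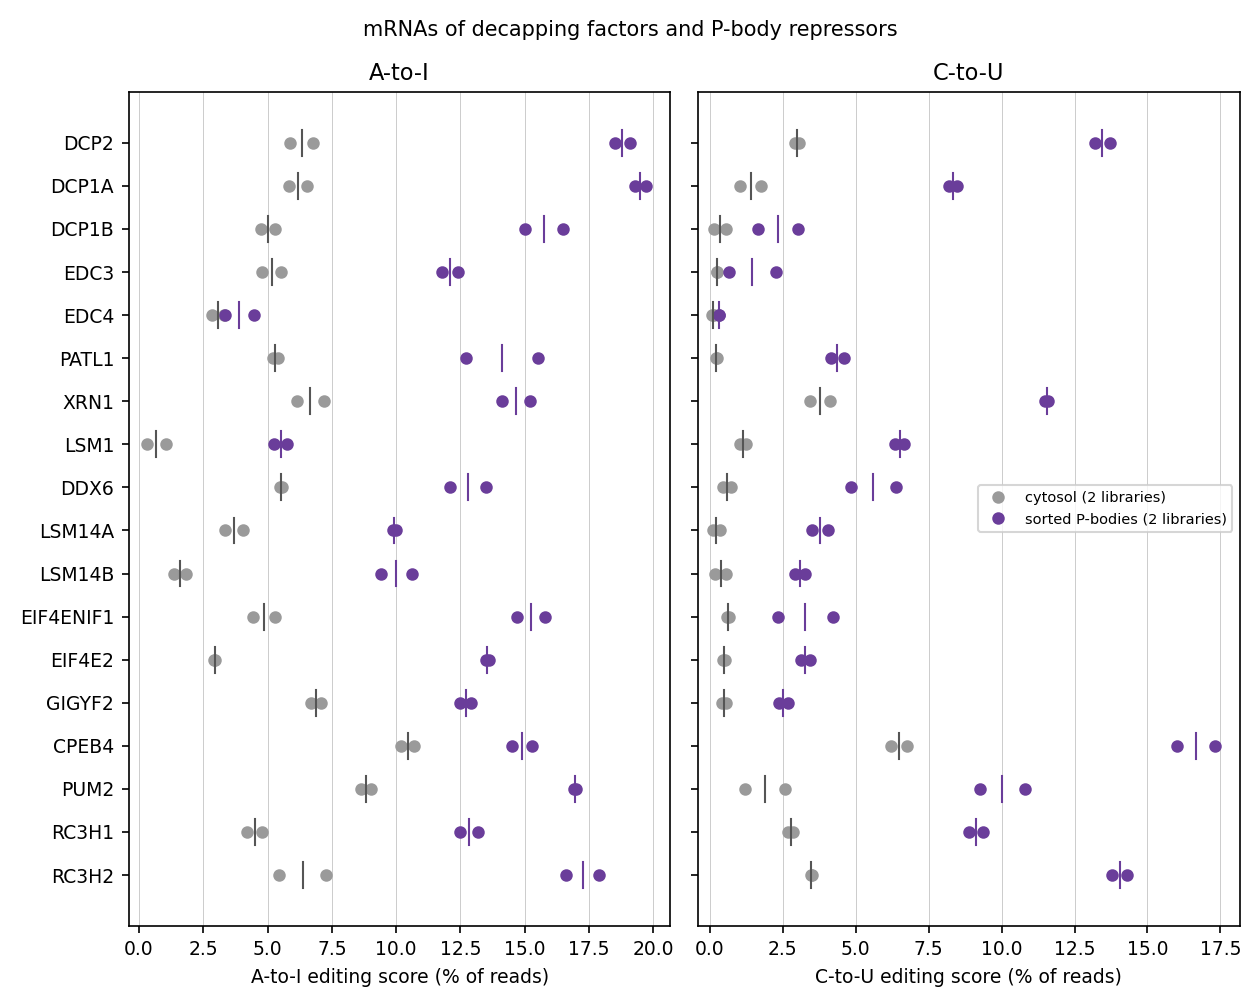
Editing scores (percent of reads, linear axes from 0) of the 8 decapping genes and 10 of the 11 tested repressor genes, A-to-I and C-to-U in separate panels, with 1 point per library coloured by fraction and a vertical line at the mean of 2. DDX6 sorted libraries sit at 12.1% and 13.5% for A-to-I against 5.49% and 5.56% in the cytosol, whereas EDC4 sorted and cytosol libraries nearly meet.

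Genes of miRNA silencing, deadenylation, stress granules and nonsense-mediated decay were counted in the same way. Their median mRNA GC content was 46.2%, 44.9%, 47.5% and 48.5%. Of all tested genes, 85.4% rose for both marks at 40.9% to 45.2% GC and 75.2% at 45.2% to 50.9%. Of 10 miRNA silencing genes, 9 rose for both marks (64% of all genes), among them AGO2, AGO4 and DICER1, and MOV10 rose for A-to-I only. AGO2, the slicing Argonaute, had A-to-I scores of 18.2% and 19.1% against 6.93% and 5.65%, and C-to-U scores of 8.56% and 8.88% against 1.69% and 1.36%. MOV10, an RNA helicase that binds Argonautes, had A-to-I scores of 4.37% and 3.63% against 1.73% and 1.11%. For C-to-U it was listed at 0, 0.481%, 0 and 0.215%, so each fraction had 1 library at 0. The MOV10 C-to-U log2 odds ratio had a 95% interval of -2.05 to 3.74, which holds both no gain and a gain above the median gene's.

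Of 17 deadenylation genes, 16 rose for both marks (64% of all genes) and 5 (CNOT1, CNOT2, CNOT7, CNOT11 and BTG3) did so beyond the median gene (8.12% of all genes). CNOT6, a deadenylase of the CCR4-NOT complex, had C-to-U scores of 14.5% and 14.4% in the sorted libraries and 1.84% and 1.7% in the cytosol. The A-to-I scores stood at 18.3% and 18.8% against 8.67% and 7.03%, and the C-to-U gain was the larger by 1.80 ± 0.27 (log2; adjusted p = 4.7e-06, edgeR). PAN2, the catalytic subunit of the PAN2-PAN3 deadenylase, rose for A-to-I only, from 0.818% and 0.894% to 1.71% and 1.92%. That call was lost without sorted library 2 (adjusted p = 0.065, edgeR) or cytosol library 1 (0.075).

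Of 17 stress granule scaffolds, 16 rose for both marks and 10 did so beyond the median gene, beside 64% and 8.12% of all genes, with median log2 ratios of 1.86 and 3.83. CAPRIN1, a partner of G3BP1, rose from 6.25% and 5.94% to 15.7% and 16.2% for A-to-I and from 0.627% and 0.451% to 8.04% and 9.35% for C-to-U. FXR2, a relative of FMR1, rose for A-to-I only. Of 10 nonsense-mediated decay genes, 8 rose for both marks, SMG9 for A-to-I only and SMG8 for C-to-U only. The SMG9 call was lost without sorted library 2 or cytosol library 2 (adjusted p = 0.13 for each, edgeR), and the SMG8 call without sorted library 1 or 2 or cytosol library 2 (0.056, 0.12 and 0.054). The count of 8 became 3 without sorted library 2 and 5 with limma.

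The genes with the largest gains in both marks at once were chosen by the smaller of their 2 log2 odds ratios, with at least 500 reads per group and at least 4 edited reads in each group. They were PDCD5, B2M, TIA1, CCNB1, TCEAL8, PSMD6, PLOD2, EID1, SRP9, LAPTM4A, TBP and RAP1B. As these sizes chose them, their values are a description. Without any 1 library, the A-to-I call held for 12 of the 12 and the C-to-U call for 10. Without sorted library 2 the C-to-U adjusted p (edgeR) became 0.05 for B2M and 0.065 for TBP.

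TIA1 encodes an RNA-binding protein that nucleates stress granules (ENSG00000116001.17; hg38, chromosome 2, 70209444 to 70248660, minus strand). For A-to-I the scores were 5.52% and 6.06% in the sorted libraries and 0.0693% and 0.26% in the cytosol, from 134 edited reads of 2320 against 5 of 2979. The C-to-U scores stood at 10.9% and 9.72% against 0.832% and 0.392%. With reads pooled over the 2 libraries of each fraction, the scores differed by 34.4-fold and 17.1-fold.

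CCNB1 encodes cyclin B1, which drives entry into mitosis. Its A-to-I scores were 10.1% and 11.5% against 0.796% and 0.489%, and its C-to-U scores 2.17% and 3.7% against 0.128% and 0.0613%. SRP9, a subunit of the signal recognition particle, carried the highest C-to-U scores of the 12, at 18.2% and 20.4% in the sorted libraries against 1.68% and 1.37%. The A-to-I scores stood at 3.15% and 4.36% against 0.325% and 0.139%. PSMD6, a subunit of the proteasome's regulatory particle, had A-to-I scores of 9.74% and 9.19% against 1.05% and 0.257%, and C-to-U scores of 5.39% and 7.67% against 0.273% and 0. In each of these 4 genes both sorted libraries lay far above both cytosol libraries.

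Another 14 genes with at least 500 reads per group rose for both marks with neither mark listed in the cytosol. The 6 with the most edited reads, by the mark with fewer of them, were LSM3, ERH, RPS7, CKS2, GPR50 and BOLA3. A listed 0 can come from a filter on sites, which is not described in the sources used here. LSM3, a subunit of the LSM rings that bind the 3′ end of oligoadenylated mRNA and U6 RNA, had A-to-I scores of 6.24% and 4.75% and C-to-U scores of 4.61% and 4.96% in the sorted libraries. In the cytosol it had 0 edited A-to-I reads of 3670, which allows a score of up to 0.0817%. Counted against 3 edited reads over the group, its scores were at least 68.5-fold (A-to-I) and 58.2-fold (C-to-U) higher in the sorted libraries. RPS7, a protein of the small ribosomal subunit, had sorted A-to-I scores of 0.896% and 0.909%, at least 35.2-fold higher, and C-to-U scores of 0.358% and 0.75%, at least 20.1-fold higher. With 1 sorted library left out, none of these 6 keeps edited reads in 2 libraries, so the calls cannot be retested that way.

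A test of the difference between the editors was called for few of the genes that rose for 1 mark alone. Of the 1343 genes called for A-to-I only, the difference between the editors was called for 32 (2.38%), beside 0.552% of all genes. Of the 480 called for C-to-U only, it was called for 136 (28.3%), beside 21.7% of all genes. Among the 6728 genes that rose for both marks, A-to-I was called larger for 0.134% and C-to-U for 31.7%. All classes were set by calls on the same reads, so these shares are a description. Beyond the median gene the shares were 5.88% (79 of 1343) and 5% (24 of 480), beside 1.4% and 6.48% of all genes. For the others a missing call does not show that the second mark did not change. The A-to-I-only genes had median C-to-U scores of 0.728% and 0.93% in the sorted libraries and 0.364% and 0.333% in the cytosol, so this mark was low in both fractions.

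Differences toward A-to-I among well-read genes were called for TIMM13, CMTR1, FCSK, CAD, ATP6V0B, PSMG4 and THOC3, among others. With DESeq2 those of TIMM13, ATP6V0B and THOC3 were lost (adjusted p = 0.059, 0.057 and 0.069). CMTR1 encodes the methyltransferase that adds the cap 1 mark to mRNA (ENSG00000137200.13; hg38, chromosome 6, 37433219 to 37482827, plus strand). For A-to-I the scores were 4.31% and 4.92% in the sorted libraries against 3.29% and 2.37% (log2 odds ratio 0.72 ± 0.20; adjusted p = 0.0036, edgeR). For C-to-U it was listed at 0 of 4808 reads in the sorted libraries, which allows up to 0.0624%, and at 0.125% and 0.246% in the cytosol, so the score was at least 2.98-fold lower. It passed the filter for C-to-U through the cytosol libraries alone. Each of these difference calls was lost or could not be tested without some library. For CMTR1 the adjusted p (edgeR) was 0.087 without sorted library 1 and 0.081 without sorted library 2, and too few C-to-U reads were left for a test without either cytosol library.

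Opposite called directions were rare. A-to-I rose and C-to-U fell for 3 genes, CMTR1 and CAD among them, which were both listed at 0 for C-to-U in the sorted libraries. CAD, the enzyme that starts pyrimidine synthesis, had A-to-I scores of 7.54% and 7.71% in the sorted libraries against 4.72% and 4.96%. For C-to-U it had 0 edited reads of 15034 in the sorted libraries and 5 of 9567 in the cytosol, at least 2.62-fold lower. The A-to-I call of CMTR1 was lost without sorted library 2 (adjusted p = 0.052, edgeR) and with limma (0.074). The C-to-U calls of CMTR1 (adjusted p = 0.089 and 0.069, edgeR) and CAD (0.15 and 0.12) were lost without sorted library 1 and 2, and that of CAD with limma (adjusted p = 0.24). HSPA2 and VAMP2, the 2 genes in the opposite arrangement, had fewer than 500 reads in a group and are named only for completeness.

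In the other direction the rule named PTPRF, RER1, PRR14, PTPRS, TKT, ZDHHC4, CYB5R3 and PLD3, for which C-to-U rose and A-to-I was not called. Beyond the median gene the C-to-U rise was called for none of them (adjusted p = 0.053 to 0.16, edgeR). On that scale the difference between the editors was not called for PTPRS (adjusted p = 0.055, edgeR) and PLD3 (0.061). PTPRF encodes a receptor tyrosine phosphatase of cell adhesion sites (ENSG00000142949.17; hg38, chromosome 1, 43525187 to 43623666, plus strand). Its A-to-I scores were 5.5% and 6.15% in the sorted libraries and 4.94% and 5.26% in the cytosol, a log2 odds ratio of 0.19 (95% interval -0.08 to 0.47; adjusted p = 0.18, edgeR). For C-to-U the scores were 0.19% and 0.223% in the sorted libraries, and 0 of 18433 reads were edited in the cytosol. The sorted C-to-U score was at least 12.4-fold higher, and the gene passed the filter for C-to-U through the sorted libraries alone.

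RER1, which returns membrane proteins to the endoplasmic reticulum, had A-to-I scores of 10.2% and 9.28% against 7.72% and 7.48%, with C-to-U scores of 0.768% and 2.11% against 0 and 0. TKT, the transketolase of the pentose phosphate pathway, had lower A-to-I scores in the sorted libraries, 4.05% and 3.95% against 4.6% and 4.62%, with no call (adjusted p = 0.19, edgeR). Its C-to-U scores were 0.138% and 0.165% against 0 and 0, from 9 edited reads in all. The differences of PTPRF, RER1, TKT and CYB5R3 were called without either cytosol library. Those of PTPRS, ZDHHC4 and PLD3 were lost without either (adjusted p between 0.053 and 0.08, edgeR), and that of PRR14 without cytosol library 2 (0.074). Leaving out a sorted library leaves C-to-U reads in too few libraries for a test in all 8. The C-to-U edits of all 8 lie in the sorted libraries alone, so leaving out a cytosol library removes only a C-to-U score of 0. A difference still called then is no sign of a firmer gain.

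Some genes rose for both marks with very unequal gains. The rule named PPA1, RPL7, ACTG1, EPRS1, MLLT11 and HSPD1 for an excess of C-to-U, with A-to-I present in the cytosol and C-to-U listed at 0 there. With that 0 only a lower bound of the C-to-U gain exists, so no order among these genes is given. HSPD1 encodes the mitochondrial chaperonin HSP60 (ENSG00000144381.18; hg38, chromosome 2, 197486584 to 197516737, minus strand). The A-to-I scores stood at 13.8% and 14.4% in the sorted libraries against 3.53% and 2.61%. The C-to-U scores stood at 1.99% and 2.03%, from 407 edited reads of 20263, against 0 of 25249 in the cytosol. That is at least 169-fold higher, beside 4.6-fold for A-to-I (pooled reads). Without sorted library 1 or without sorted library 2, the difference beyond the median gene could not be tested for any of these 6. MLLT11 also lost its A-to-I call without sorted library 2 (log2 odds ratio 0.69). HSPD1, RPL7 and ACTG1 have many processed pseudogenes, so their reads are uncertain.

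PPA1, a pyrophosphatase of the cytosol, had A-to-I scores of 9.24% and 11.3% against 5.05% and 5.43%, and C-to-U scores of 3.64% and 4.75% against 0 and 0, at least 108-fold higher. EPRS1, the glutamyl-prolyl-tRNA synthetase, had A-to-I scores of 10% and 10.4% against 7.16% and 6.84%, and C-to-U scores of 1.1% and 1.05% against 0 and 0, at least 55.8-fold higher. In both genes the A-to-I gain was smaller than that of the median gene while the C-to-U mark was listed in the sorted libraries alone. Beyond the median gene, C-to-U exceeded A-to-I for 681 of the 10506 genes (6.48%) and fell below it for 147 (1.4%). Without sorted library 1 or 2 or cytosol library 1 or 2, the first count was 292, 262, 368 and 296 and the second 37, 53, 63 and 67.

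In the reverse case the rule named BTF3, PDIA6, TSEN15, MACROH2A1, ZNF330 and ATF1. ATF1 encodes a transcription factor of the CREB family (ENSG00000123268.9; hg38, chromosome 12, 50763710 to 50821162, plus strand). For A-to-I the scores were 9.31% and 9.52% in the sorted libraries against 1.2% and 0.756%. Its C-to-U scores were already 10.3% and 9.77% in the cytosol and 20.5% and 17.6% in the sorted libraries. The C-to-U gain fell short of the A-to-I gain by 2.31 on the log2 scale (-2.31 ± 0.47; adjusted p = 0.00036, edgeR), and the call of this difference beyond the median gene held without any 1 library. The ATF1 C-to-U call itself was lost without sorted library 1 (adjusted p = 0.057, edgeR) and with DESeq2 (0.069).

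MACROH2A1, which encodes a variant of histone H2A, had A-to-I scores of 3.18% and 3.99% against 0.207% and 0.224%, and C-to-U scores of 1.24% and 1.92% against 0.704% and 0.407%. The difference was -2.58 ± 0.52 (log2; adjusted p = 0.00036, edgeR). Its C-to-U call was lost without sorted library 2 (0.15) and with limma (0.072). BTF3, which binds nascent polypeptides at the ribosome, had A-to-I scores of 4.22% and 6.75% against 0 and 0, at least 217-fold higher, with C-to-U scores of 2.28%, 3.75%, 0 and 0.285%. The call of its difference beyond the median gene was lost without cytosol library 2 (adjusted p = 1, edgeR), as were those of PDIA6 without cytosol library 1 (0.18), TSEN15 without cytosol library 1 or 2 (0.33 and 0.1) and ZNF330 without cytosol library 1 (0.063). For BTF3, PDIA6 and TSEN15 this difference could not be tested without sorted library 1 or without sorted library 2. The C-to-U calls of BTF3 and TSEN15 were lost without sorted library 2 (log2 odds ratios 4.06 and 2.23). That of PDIA6 was lost without sorted library 1 (2.14).

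**Figure D3:**
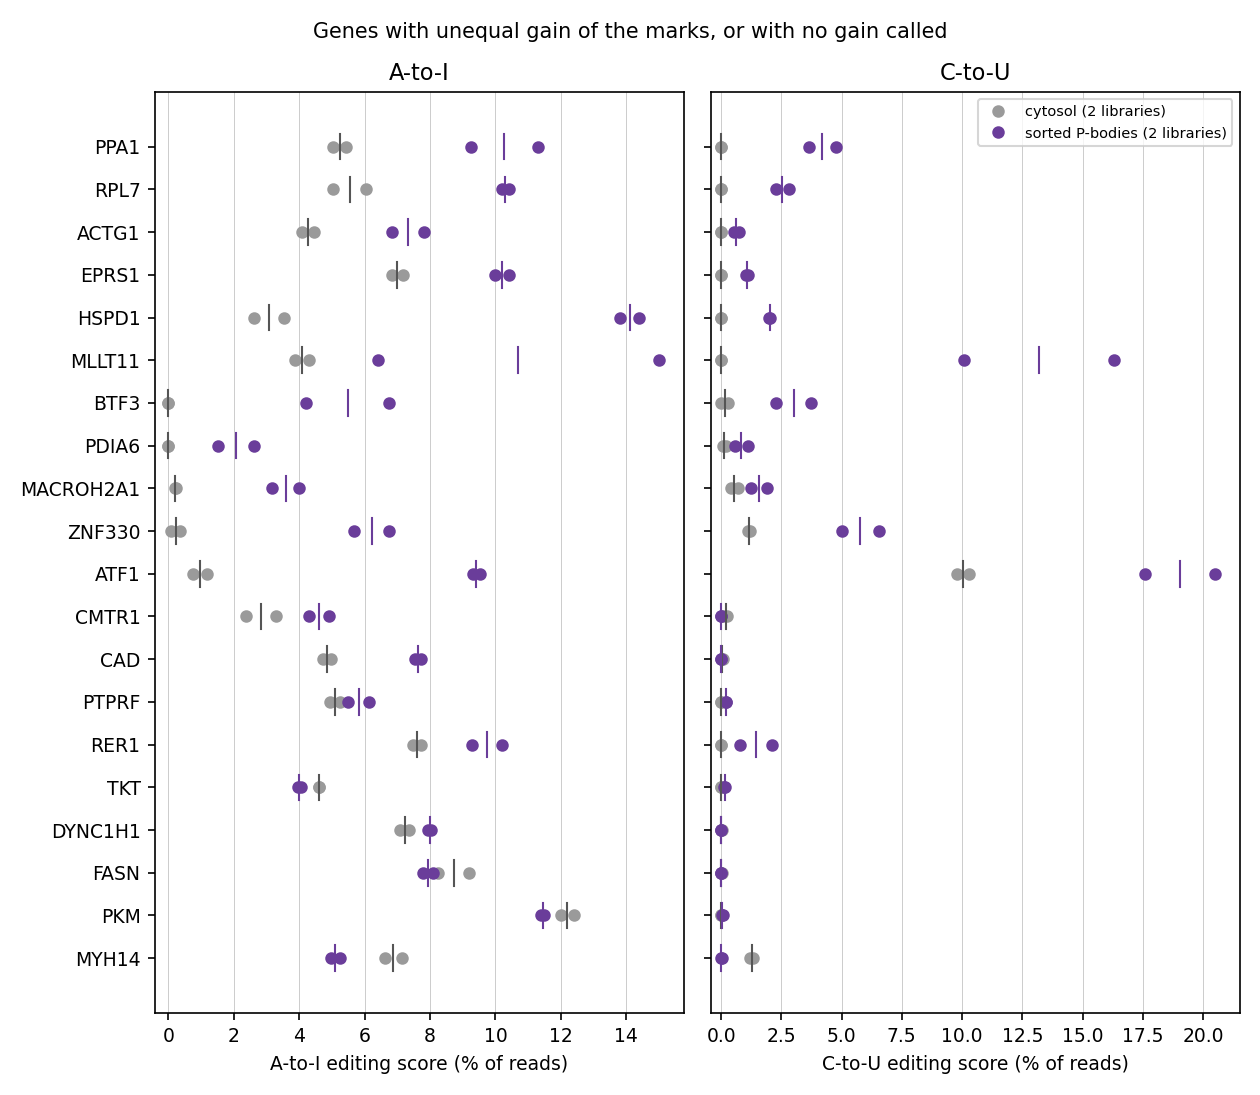
Editing scores (percent of reads, linear axes from 0) of genes with unequal gain of the marks or with no gain called, A-to-I and C-to-U in separate panels, with 1 point per library coloured by fraction and a vertical line at the mean of 2. HSPD1 C-to-U stands at 1.99% and 2.03% in the sorted libraries and at 0 in the cytosol, and MYH14 C-to-U has the opposite order.

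Genes that gained neither mark included several of the most deeply read mRNAs. The 8 with the most reads among those called in no direction for either mark were DYNC1H1, SPTBN1, FASN, IQGAP1, SNRNP200, GANAB, GNAS and PKM. DYNC1H1, the heavy chain of cytoplasmic dynein, had A-to-I scores of 7.95% and 8.04% in the sorted libraries and 7.09% and 7.36% in the cytosol, over 115926 and 52531 reads. The 95% interval of its log2 odds ratio was -0.03 to 0.34 (adjusted p = 0.11, edgeR), below the median log2 odds ratio of 1.49 over all genes. Only 1 of 114837 reads in the sorted libraries and 5 of 52065 in the cytosol carried C-to-U.

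PKM, the pyruvate kinase of glycolysis, had the highest A-to-I scores of the 8, at 11.4% and 11.5% in the sorted libraries and 12% and 12.4% in the cytosol (95% interval -0.33 to 0.13). FASN, the fatty acid synthase, had 7.8% and 8.09% against 8.25% and 9.19% (-0.36 to 0.07). These mRNAs thus carried A-to-I edits in both fractions at like levels and almost no C-to-U edit in either. Without cytosol library 2, C-to-U was called lower for DYNC1H1, FASN, SPTBN1 and IQGAP1 (log2 odds ratios -4.24, -3.54, -1.21 and -2.23). With all 4 libraries kept, IQGAP1 C-to-U was also called lower with at least 50 reads in every library (-1.52; adjusted p = 0.041, edgeR). The same held with at least 10 edited reads (adjusted p = 0.033, edgeR), so its place among genes without a call depends on the read minimum.

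Both marks fell for 6 genes, ABCA7, BORCS7, CUX2, MYH14, NHEJ1 and ZFHX2, of which MYH14 alone reached 500 reads per group. MYH14 encodes a non-muscle myosin heavy chain (ENSG00000105357.19; hg38, chromosome 19, 50188186 to 50310542, plus strand). Its A-to-I scores were 4.96% and 5.26% in the sorted libraries against 7.13% and 6.62% (log2 odds ratio -0.46 ± 0.16; adjusted p = 0.016, edgeR). For C-to-U the scores were 0.0295% and 0 against 1.33% and 1.22%, from 3 edited reads of 17562 and 27 of 2124 (adjusted p = 1.9e-05, edgeR). The C-to-U call held without any 1 library, while the A-to-I call was lost without sorted library 1 (0.091) or cytosol library 1 (0.1) and with limma (0.054).

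MYH14 belongs to a list of 41 cytoskeletal scaffold and actin-linked genes, which was drawn from earlier results of these data and is therefore no independent evidence. Of 37 tested for both marks, 7 rose for both, 6 for A-to-I only and 24 for neither. A-to-I fell for 5 of 41 tested and C-to-U for 12 of 37, beside 1.08% and 0.292% of all genes. The list's median log2 ratios were 0.05 and -0.88, and its median reads were higher in the sorted libraries by 2.08 on the log2 scale, which moved with these scores and whose part in them was not tested. TJP1 and AFDN, scaffolds of cell junctions, rose for both marks: TJP1 A-to-I from 4.21% ± 0.371 to 11.5% ± 1.10 and C-to-U from 0.573% ± 0.0914 to 4.76% ± 0.625 (SD, n = 2). FLNA, the actin cross-linker filamin A, fell for A-to-I from 7.88% and 8.15% to 6.57% and 6.35% (adjusted p = 0.0022, edgeR), a call lost without sorted library 2 (0.061) and with limma (0.077).

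The remaining lists differed in how many genes gained both marks. Cell cycle and mitosis genes rose for both in 42 of 42 tested, chaperonin and heat shock genes in 19 of 20, secretory and endoplasmic reticulum genes in 27 of 29, translation factors in 23 of 26, chromatin modifiers in 51 of 59 and ubiquitin ligases and deubiquitinases in 43 of 51. The background is 64% over all genes, but 85.4% among those with 40.9% to 45.2% mRNA GC. The median GC of each of these lists lay in that range, except for chromatin modifiers (47.7%). The 42 cell cycle genes became 38 with DESeq2, 37 with limma and 36 with an odds ratio of at least 2 also asked. Of them, 7 rose for both beyond the median gene, beside 8.12% of all genes. Numbered zinc finger genes stood nearer to the 64% of all genes, at 284 of 387 (73.4%).

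Chaperones had the largest median C-to-U gain of the lists, with log2 ratios of 2.15 (A-to-I) and 5.17 (C-to-U). Their median C-to-U scores were 1.98% in the sorted libraries and 0.0485% in the cytosol, beside 2.94% and 0.636% over all genes. The large ratio thus went with very low cytosol scores, not with high sorted ones. Of the 20, 14 rose for both beyond the median gene, beside 8.12% of all genes. CCT4, a subunit of the cytosolic chaperonin, had C-to-U scores of 2.0% and 2.87% in the sorted libraries against 0.0143% and 0, and A-to-I scores of 7.05% and 7.32% against 0.851% and 0.738%. CCT5, another subunit, rose for A-to-I only (1.07% and 1.08% against 0.259% and 0.269%). CCT5 C-to-U scores were 0.0569%, 0.0152%, 0.0153% and 0, so the groups overlapped.

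Among secretory genes CANX, the lectin chaperone calnexin, rose from 2.04% and 1.75% to 9.48% and 10.9% for A-to-I and from 0.375% and 0.244% to 8.0% and 9.99% for C-to-U. SRP14, the partner of SRP9, behaved otherwise than SRP9. The A-to-I scores stood at 15.4% and 15.2% in the sorted libraries and 12.8% and 14.8% in the cytosol, while its C-to-U scores were 2.34% and 3.31% against 0.217% and 0.773%. The SRP14 C-to-U call was lost without sorted library 1 (adjusted p = 0.06, edgeR) or 2 (0.092).

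Translation factors had median log2 ratios of 1.68 and 4.01, and 13 of 26 rose for both beyond the median gene (8.12% of all genes). EIF3E, a subunit of the initiation factor EIF3, had C-to-U scores of 10.6% and 9.62% against 0.246% and 0.505%, with A-to-I scores of 7.73% and 7.44% against 1.52% and 1.76%. EIF4G1, the scaffold of the cap-binding complex, rose for A-to-I only, from 3.82% ± 0.282 to 5.51% ± 0.159 (SD, n = 2), a call lost with limma (adjusted p = 0.057). Of the cell cycle genes, ECT2, which activates RHOA at cytokinesis, had A-to-I scores of 17.2% and 17.3% against 5.64% and 6.59%, and C-to-U scores of 12.7% and 14.2% against 1.95% and 1.34%. HDAC2, a histone deacetylase, rose 2.41-fold for A-to-I and 33.3-fold for C-to-U (pooled reads).

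Many genes of the ribosome, the proteasome and energy metabolism could not be tested for both marks. Of 80 cytosolic ribosomal protein genes listed, 47 were tested. Of these, 21 rose for both marks (44.7%, beside 64% of all genes), 16 for A-to-I only, 2 for C-to-U only and 8 for neither. RPL5 rose for both, with A-to-I scores of 5.65% and 6.75% against 1.83% and 1.42% and C-to-U scores of 3.68% and 3.53% against 0.316% and 0.184%. RPS4X rose for A-to-I only (6.17% and 7.57% against 2.49% and 2.16%), with 1 C-to-U edited read in each fraction. Ribosomal protein genes have many processed pseudogenes, so their reads are uncertain.

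Of 12 glycolysis genes 5 rose for both marks (41.7%, beside 64% of all genes). Among them was LDHA, the lactate dehydrogenase subunit, whose C-to-U scores were 2.49% and 3.1% against 0 of 16889 reads, at least 155-fold higher. TPI1, the triose phosphate isomerase, rose for A-to-I only, from 2.71% and 2.47% to 5.62% and 5.91%, with C-to-U scores of 0.59% and 0.446% against 0.432% and 0.294%. Of 42 nuclear-encoded oxidative phosphorylation genes 26 rose for both marks (61.9%), which is close to the 64% of all genes. One was NDUFA5 of complex I, at 5.54% and 6.74% against 0.806% and 0.624% for A-to-I and 22.8% and 18.6% against 1.38% and 1.66% for C-to-U. Proteasome subunits rose for both in 18 of 24 (75%) and replication-dependent histones in 3 of 7 (42.9%), beside the same 64%.

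Leaving out a sorted library lowered these counts and also the number of genes that could be tested. Without sorted library 1 and without sorted library 2, respectively, the genes rising for both were 13 of 37 and 13 of 37 for ribosomal proteins, 12 of 25 and 12 of 27 for oxidative phosphorylation, 3 of 10 and 1 of 10 for glycolysis and 12 of 19 and 10 of 19 for the proteasome. For histones the count was 1 without sorted library 2. No mitochondrially encoded mRNA was listed in both tables. TUG1, the 1 nuclear noncoding RNA listed, rose for both marks, from 0.833% and 1.03% to 5.05% and 5.39% for A-to-I and from 0.214% and 0.132% to 3.04% and 2.57% for C-to-U.

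**Figure D4:**
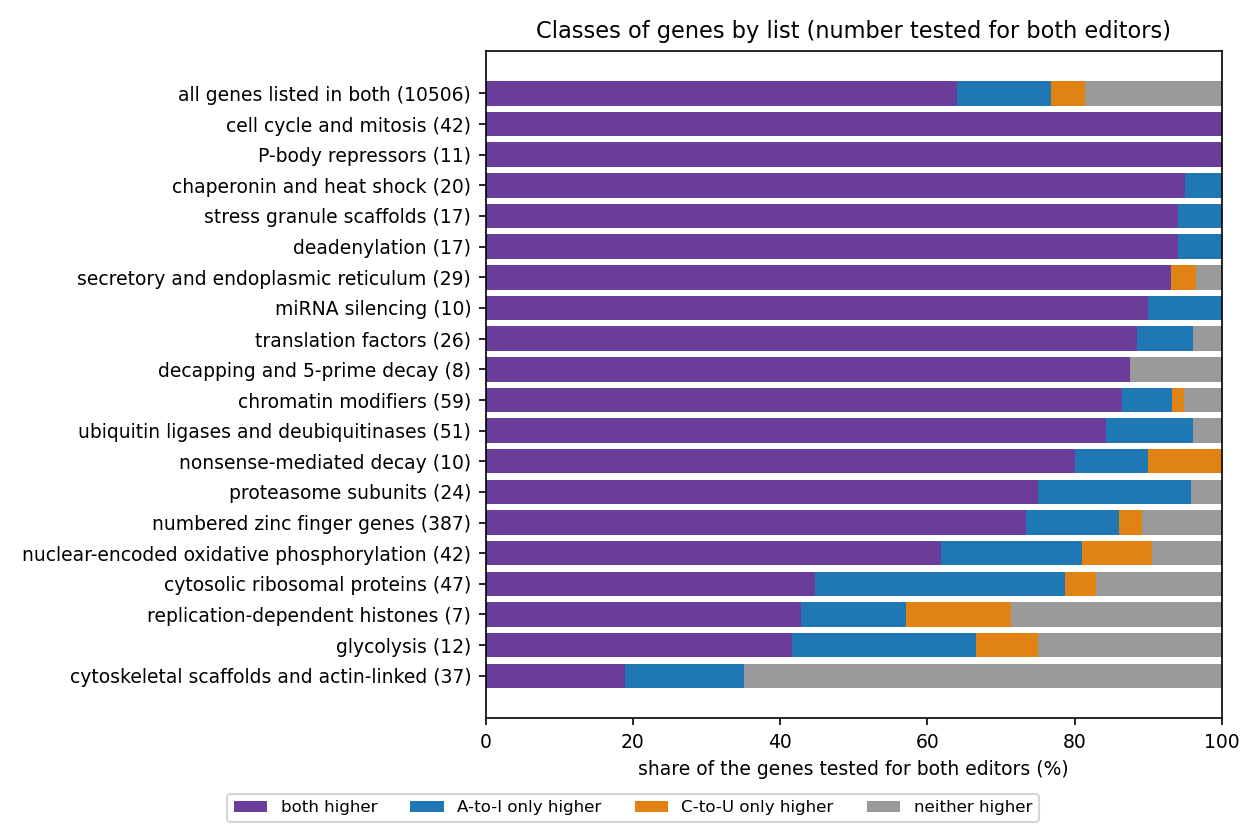
Horizontal bars give, for each gene list and for all genes, the percentage of genes tested for both marks that rose for both, for A-to-I only, for C-to-U only or for neither, with the number tested beside each name. Cell cycle genes and P-body repressors reach 100% for both marks, beside 64% of all genes and 18.9% of the cytoskeletal list.

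The classes differed in base composition, which the choice of genes did not use. Base content and lengths came from the GENCODE v29 coding transcripts of 11684 members (99.9%). The median mRNA GC content was 44.2% for genes that rose for both marks, 56% for A-to-I only, 51.5% for C-to-U only and 58% for neither. The 3′UTR showed the same order, at 37.5%, 50.8%, 45.5% and 52.3%, and its median length was 1514, 719, 815 and 767 bases. These are descriptions across genes, which share the same 4 libraries and are not replicates.

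Split into 5 bins of equal size by mRNA GC content, from a median of 38.7% GC to one of 61.5%, the share of genes rising for both marks went from 93.1% through 85.4%, 75.2% and 46.2% to 20.4%. The share rising for A-to-I only went from 1.52% in the lowest bin to 24.7% in the highest, and the share rising for neither from 2.81% to 47.5%. The median sorted C-to-U score went from 10.7% to 0.83% and the median cytosolic one from 1.71% to 0.361%. A-to-I scores varied less, from 10.9% to 4.16% in the sorted libraries and from 3.49% to 2.39% in the cytosol. The median log2 ratio also declined, from 1.63 to 0.86 for A-to-I and from 2.52 to 1.39 for C-to-U.

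Depth moved with the classes too. Genes that rose for both had a median of 1054 reads per library, against 266 for those that rose for neither, and the share rising for both was 26.8%, 61.9%, 80.2% and 87.3% over 4 bins of genes from the least to the most deeply read. Within each of these bins the median GC content was 43.8% to 44.8% for genes rising for both and 56.7% to 59.1% for those rising for neither. For A-to-I only it was 54.4% to 57.2%. For C-to-U only it was 47.2%, 53.2%, 58.2% and 59.1% from the least to the most deeply read bin, above A-to-I only in the last 2 bins and above neither in the last, so the order of the classes over all genes did not hold there. The reads ratio of sorted to cytosol libraries moved with the classes as well, with a median log2 value of -0.06 for genes rising for both and -0.73 for neither, and its part in the result was not tested.

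**Figure D5:**
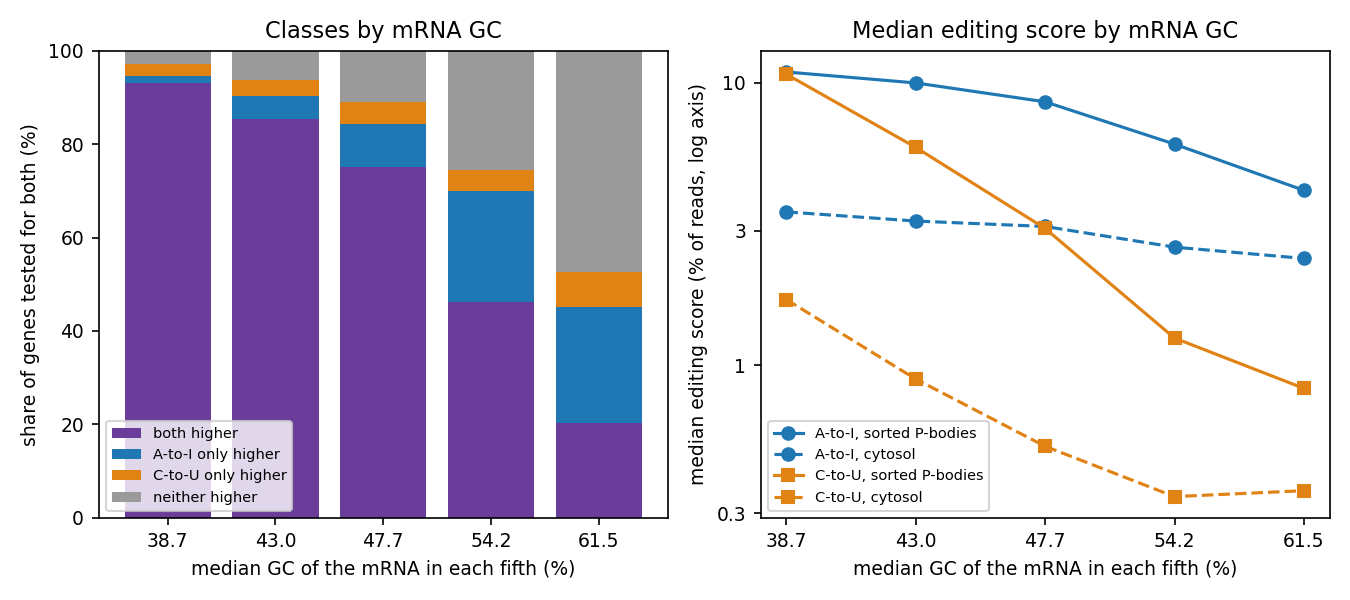
Genes tested for both marks are split into 5 bins by mRNA GC content (horizontal axis, median GC percent of each bin), with the percentage of genes in each class in one panel and the median editing score (percent, logarithmic axis) by editor and fraction in another. The share rising for both marks goes from 93.1% to 20.4%, and the median sorted C-to-U score from 10.7% to 0.83%.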

How the data were processed

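The labels' sample groups gave 2 sorted P-body and 2 cytosol libraries. Per the submitters' processing notes, reads were handled with STAR 2.7.9a, cutadapt 1.18, featureCounts 2.0.1 and FastQC 0.11.9 on hg38. Site calling, strand use and annotation: not given in the sources used here. Per the file headers, the authors deposited edited reads as counts and an editing score as a fraction, which equalled edited reads over reads to within 5.0e-08. The deposited reads columns were treated as estimated counts because the broken ANK2 lines hold values that are not whole. The authors also deposited raw counts per gene, used here for markers and identifiers.

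Edited and unedited reads were fitted per gene with edgeR 4.0.16 (R 4.3.3), with 1 effect per library and 1 for the group's edited share. Both editors entered 1 joint fit for their difference, repeated beyond the median gene by offsetting edited reads by each library's median log odds. Adjustment was Benjamini-Hochberg over all genes tested. The scripts were tested on simulated data. Limits of 3 counts for a 0, and 95% intervals, cover counting and model error only, since no molecular identifiers tell molecules from copies.

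The labels' batch number equals the replicate number, so it pairs the libraries. Deviations of same-numbered libraries correlated at -0.005 (A-to-I, 6955 genes) and 0.031 (C-to-U, 2613 genes). Alternatives were a replicate block, centring, read minima, DESeq2 1.42.0, limma 3.58.1 and leaving out each library. Members and lists were chosen with earlier results of these data known. Genes named had at least 500 reads per group in each table and were the most extreme of each class, the most read where neither mark was called, up to 2 members of each list that rose for both and 2 that did not, and the decapping and repressor genes, though some genes that meet these rules are not reported here. CNOT1, CNOT2, CNOT11, BTG3, DICER1, G3BP1 and the genes named without values were named from their lists after values were seen.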

Additional observations from a re-analysis of the deposited data

How the results depend on the processing

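Fits with the replicate block, a minimum of 50 reads or of 10 edited reads, DESeq2 and limma reversed no gene named here, but ended some calls and made a few. The minima of 50 reads and of 10 edited reads each made 2 calls, IQGAP1 lower for C-to-U among them (adjusted p = 0.041 and 0.033, edgeR). DESeq2 ended 11 (adjusted p = 0.057 to 0.17): FCSK for A-to-I, ATF1 for C-to-U, and the difference between the editors for THOC3, TIMM13, ATP6V0B, SMG8, BTF3, ZNF330, CPEB4, AGO2 and TUG1. Limma ended 11 (adjusted p = 0.052 to 0.24): CMTR1, MYH14, MLLT11, PAN2, SMG9, EIF4G1 and FLNA for A-to-I, and CAD, PTPRS, MACROH2A1 and EDC3 for C-to-U. It called RER1 higher for A-to-I (0.047) and FCSK lower for C-to-U (0.018). With the replicate block, which pairs the libraries by the labels' batch, A-to-I fell for 69 genes in place of 119, and it moved no other class count by over 1.5 times (6673 genes rose for both). Among the genes named, the block called the difference between the editors for TSEN15 (adjusted p = 0.033, edgeR), ended that difference call for AGO2 (0.058) and FLNA (0.055), and changed no other call. With DESeq2, A-to-I fell for 56 genes and C-to-U for 20, C-to-U exceeded A-to-I for 1109 and fell below it for 19, and beyond the median gene for 443 and 71. With limma, A-to-I fell for 304 and C-to-U for 270. With at least 10 edited reads, 738 genes rose for A-to-I only and 658 for neither. With an odds ratio of at least 2 also asked, 975 rose for C-to-U only. Without any 1 library, genes higher and lower numbered 7344 to 7909 and 40 to 99 (A-to-I), and 5366 to 7049 and 12 to 21 (C-to-U). Those rising for both numbered 4990 to 6458, for A-to-I only 1205 to 1934, for C-to-U only 355 to 604 and for neither 1786 to 2481. The difference between the editors was called for 877 to 1358 (C-to-U above) and 14 to 28 (below), and beyond the median gene for 262 to 368 and 37 to 67. The cause of these shifts was not tested. At nearly equal reads, 13% to 19.5% of members were listed at 0 per library for C-to-U and 6.27% to 9.61% for A-to-I, and a missing call does not show that a score did not differ.

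Centring on the median gene, which by construction removes the common gain, left A-to-I higher for 1897 and lower for 1380 genes and C-to-U for 1463 and 388, with 853 rising for both and 8036 for neither, and differences called for 681 and 147. Among the genes named, centring ended 53 calls without a change of sign and made 12 new ones. Some estimates below 0 on this scale were not called, such as A-to-I of AFDN, MLLT11, EDC3, HDAC2 and DDX6 (adjusted p = 0.97, 0.93, 0.84, 0.78 and 0.49, edgeR). Centring turned the sign of the log2 odds ratio for genes whose estimated gain lay below that of the median gene, whether called or not. For A-to-I these were CMTR1 -0.68, CAD -0.71, PTPRF -1.22, RER1 -1.01, PTPRS -1.17, PRR14 -1.06, ZDHHC4 -1.07, PLD3 -0.90, SMG8 -0.93, SRP14 -1.23, DYNC1H1 -1.25, SNRNP200 -1.31, GANAB -1.31, GNAS -1.07, PPA1 -0.37, RPL7 -0.44, ACTG1 -0.58, EPRS1 -0.81, MLLT11 -0.05, EDC3 -0.06, EDC4 -1.01, XRN1 -0.14, DDX6 -0.08, GIGYF2 -0.43, CPEB4 -0.82, PUM2 -0.34, PAN2 -0.32, SMG9 -0.39, FXR2 -0.15, TPI1 -0.21, HDAC2 -0.05, EIF4G1 -0.85, AFDN -0.01. For C-to-U they were MACROH2A1 -0.65, ATF1 -1.07, XRN1 -0.42, CPEB4 -0.63, RC3H1 -0.34, TPI1 -1.58, FLNA -1.48.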
